A study of Pyrus communis with 12 samples.

Results

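MYB transcription factors form one of the largest families of DNA-binding proteins in plants. R2R3-MYB proteins, which carry a pair of imperfect MYB repeats, include the activators and repressors of anthocyanin, procyanidin and flavonol synthesis, which act together with bHLH and WD40 proteins on the promoters of enzyme genes. Single-repeat and MYB-related proteins act in epidermal cell fate, the circadian clock and the responses to sugar and phosphate. In the skins of young pear fruits, 412 of the 42760 genes of the deposited table were taken as members, because the protein domain named for them contains the word Myb. Of these, 278 were listed with a MYB DNA-binding domain, 57 with a Myb-like domain, 44 with a MYC/MYB N-terminal domain, 32 with a Myb/SANT-like domain and 1 as a Myb transcription factor. The MYC/MYB N-terminal domain is known from bHLH proteins of the MYC2 and GLABRA3 types, which are partners of MYB proteins and not MYB proteins themselves, so these genes were also counted on their own.

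The libraries came from skins of the red sport ‘Red Clapp Favorite’ (‘RCF’) and of its parent ‘Clapp Favorite’ (‘CF’) of Pyrus communis. Fruits of both cultivars were taken at 5 days after full bloom (DAFB; ‘RCF2’ and ‘CF2’), when their colors differed, and at 2 DAFB (‘RCF1’ and ‘CF1’), when both were green. Each of these 4 groups had 3 replicates, 12 libraries in all, and each replicate pooled the skins of many fruits. All trees stood in 1 orchard on the same kind of rootstock and were sampled in a single season, so a stage and its sampling day cannot be told apart, and the sport is represented by 1 line. Values are FPKM, a unit in which fragment numbers are divided by gene length and by library size. Fold changes are differences of log2(FPKM + 1), a scale on which genes of low FPKM change less than their ratios. In bulk skins, fewer cells of a type and less RNA per cell cannot be told apart.

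The libraries were not equally close to their groups. The number of MYB genes that differed by over 1 on the log2 scale from the average of their own group's remaining libraries was 59 in ‘CF1’ replicate 3, 41 in replicate 2 and 11 in replicate 1 of that group, and 1 to 4 in any library of ‘RCF2’, ‘CF2’ and ‘RCF1’. Relative sequencing depth, read from the steps of the lowest values, lay between 0.636 and 1.01 of that of ‘CF2’ replicate 1. The labelled tissue was checked with 4 regulators of the epidermis and cuticle (WIN1, 2 SHINE2 genes and GLABRA2), which were all detected. Their summed FPKM was 62.2 to 78.7 in ‘RCF2’, 86.8 to 97.2 in ‘CF2’, 29.7 to 36.8 in ‘RCF1’ and 15.1 to 36.0 in ‘CF1’, with the lowest value in ‘CF1’ replicate 3, where WIN1 was listed at 0. The 77 kinesin genes code for motor proteins. Their summed FPKM was 761 to 797 in ‘RCF2’, 720 to 829 in ‘CF2’, 513 to 594 in ‘RCF1’ and 282 to 523 in ‘CF1’. The 54 genes of chlorophyll a/b binding proteins summed to between 3496 and 3991 FPKM in ‘RCF2’, 4927 and 5450 in ‘CF2’, 2755 and 3473 in ‘RCF1’ and 3831 and 4829 in ‘CF1’. The 43 genes with pollen in their domain name summed to between 3478 and 3702 FPKM in ‘RCF2’, 3692 and 3773 in ‘CF2’, 3115 and 3688 in ‘RCF1’ and 3129 and 3489 in ‘CF1’. The epidermis, kinesin and chlorophyll sums moved with the stage, and the chlorophyll sum also with the cultivar, as did the epidermis sum at 5 DAFB. Their part in the results on MYB genes was not tested.

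MYB114 and MYB10, known anthocyanin regulators of pear, and C1, named after one of maize, were followed in the study by quantitative PCR (qPCR). The oligonucleotides made for these genes are shown because they say which transcripts were assayed. MYB114 was called between cultivars, and MYB10 and C1 between stages. MYB114 (PCP008283) lies on the plus strand of scaffold00046 at 395596 to 397650, MYB10 (PCP035580) on the minus strand of scaffold00213 at 45811 to 48108, and C1 (PCP004993) on the minus strand of scaffold00004 at 342875 to 344887, in the coordinates of the deposited table, whose genome build is not given. The sequences are those of the primer table of the study, 5′ to 3′. In the cloning pair, which took the whole coding sequence of MYB114, capitals mark the start codon and the reverse complement of the stop codon, each after 6 bases of an added restriction site.
MYB114 qPCR forward: gaaacaggtctaaacagatgcag
MYB114 qPCR reverse: gaggtcttatgacggatgtg
MYB114 cloning forward: ggatccATGgaggatagtaatttgctggg
MYB114 cloning reverse: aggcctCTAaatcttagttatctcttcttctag
MYB10 qPCR forward: gaccatattcaatcagaagagg
MYB10 qPCR reverse: ctaactcaagactgggacat
C1 qPCR forward: atggcagtgacaatggta
C1 qPCR reverse: ttggctgaacttgaacttg
The element named MBS, a MYB binding site in the promoter annotation of the study, reads CAACTG. No promoter was searched for it here.

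Of the 412 members, 260 reached an FPKM of 1 in 3 or more libraries and could be tested, which is 63.1% of the members, against 60.1% of all genes in the table. They were 171 genes with a MYB DNA-binding domain, 44 with a Myb-like domain, 33 with a MYC/MYB N-terminal domain and 12 with a Myb/SANT-like domain. Of the other 152 members, 40 were listed at 0 in all libraries and 12 reached an FPKM of 1 in some library, the highest value being 2.59. A gene could pass through the groups in which it was high, so counts among the tested genes do not describe all members. The median of the mean FPKM was 6.51 for the tested members and 8.32 for all tested genes. By domain it was 7.31 for MYB DNA-binding, 6.17 for Myb-like, 8.71 for MYC/MYB N-terminal and 4.07 for Myb/SANT-like genes.

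A small number of members were abundant. The mean FPKM over the 12 libraries was at least 10 for 98 members and at least 100 for 5. The highest mean, 218.7 FPKM, was that of PCP022903, a MYC/MYB N-terminal gene, followed by 195.4 for PCP007018 (MYB DNA-binding), 135.3 for PCP044511 (MYC/MYB N-terminal), 126.5 for MYB73 (PCP010433), named after a stress-responsive R2R3-MYB gene of Arabidopsis, and 124.7 for PCP004531 (Myb/SANT-like). PCP022903 had 215.8, 187.4 and 261.8 FPKM in ‘RCF2’, 125.9, 130.1 and 176.5 FPKM in ‘CF2’, 286.6, 348 and 289.9 FPKM in ‘RCF1’ and 204.3, 344.01 and 54.6 FPKM in ‘CF1’. Its lowest library was ‘CF1’ replicate 3, and the rest of ‘CF1’ lay within the range of the other groups. PCP004531 had the steadiest level of these 5 genes, between 101.2 and 112.8 FPKM in the 6 libraries of 5 DAFB and between 125.4 and 165.2 FPKM in the 6 libraries of 2 DAFB.

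Between the sport and its parent, few MYB genes were called. In ‘RCF1’ vs. ‘CF1’, 8 of 260 members (3.08%) were called, with P under 0.05 before adjustment and a log2 fold change of 1 or more in either direction, 3 of them higher and 5 lower in ‘RCF1’. Of all 25707 tested genes 2.89% were called (1.02% higher and 1.87% lower in ‘RCF1’). In ‘RCF2’ vs. ‘CF2’, 4 members (1.54%) were called, of which 3 were at a greater and 1 at a smaller level in ‘RCF2’, against 1.26% of all tested genes (0.902% higher, 0.358% lower). Both shares are near those of all genes. After Benjamini-Hochberg adjustment over all tested genes (limma), 1 of the calls at 2 DAFB held, against 0.0233% of all tested genes, and 3 of those at 5 DAFB, against 1.07%. The libraries of the cultivars did not overlap in 79 members (30.4%) at 2 DAFB, 50 higher and 29 lower in ‘RCF1’, against 29.1% of all tested genes. At 5 DAFB they did not overlap in 109 members (41.9%), 53 higher and 56 lower in ‘RCF2’, against 29.9% of all tested genes. The median log2 fold change of the members was 0.06 at 2 DAFB and -0.02 at 5 DAFB, beside 0.12 and -0.01 for all tested genes. The calls at 2 DAFB rest on how ‘CF1’ is taken. Without ‘CF1’ replicate 3 there were 7 calls, all among the 8, where 2.05% of all tested genes were called. Without ‘CF1’ replicate 2 there were 25 calls, 14 higher and 11 lower, where 9.18% of all tested genes were called. None of the 25 held after adjustment (limma, where 80 members had P under 0.05 before it), beside 1 of all 25707 tested genes. At 5 DAFB, leaving out ‘CF2’ replicate 3 gave 10 calls (3.85%) in place of 4, where 1.72% of all tested genes were called.

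MYB114, an R2R3-MYB activator of anthocyanin synthesis in pear, was the only member called between cultivars at both stages, a pattern of 0.175% of all tested genes. It had 6.31, 3.63 and 5.29 FPKM in ‘RCF2’, against 0.197, 0.0534 and 0.0832 FPKM in ‘CF2’. At 2 DAFB it had 2.19, 2.86 and 2.99 FPKM in ‘RCF1’, against 0 (as listed), 0.0614 and 0.0387 FPKM in ‘CF1’. Every library of ‘RCF’ was thus above every library of ‘CF’, and the transcript was near the limit of detection in ‘CF’ at both stages. The log2 fold change was 2.43 ± 0.17 (SE) in ‘RCF2’ vs. ‘CF2’, with an adjusted P of 0.00107 (limma), and 1.83 ± 0.13 (SE) in ‘RCF1’ vs. ‘CF1’, with an adjusted P of 0.0425. With a pseudocount of 0.1, which compresses low values less, these became 4.64 and 4.40. Within ‘RCF’ it was higher at 5 than at 2 DAFB by 0.70 ± 0.18 on the log2 scale (adjusted P = 0.0136, limma), under the fold threshold. In ‘CF’ the difference was 0.10 ± 0.12, and the difference between cultivars in the stage change, 0.60 ± 0.23, did not hold after adjustment (adjusted P = 0.273).

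MYB10, the other anthocyanin activator followed by the study, was not higher in the sport. It had 1.55, 1.82 and 1.62 FPKM in ‘RCF2’, against 1.98, 2.18 and 3.36 FPKM in ‘CF2’, so all libraries of ‘RCF2’ were below those of ‘CF2’. At 2 DAFB it had 0.334, 0.112 and 0 (as listed) FPKM in ‘RCF1’, against 0.344, 0.291 and 0.0558 FPKM in ‘CF1’, and the groups overlapped. The log2 fold changes were -0.38 ± 0.15 (SE) at 5 DAFB and -0.10 ± 0.17 at 2 DAFB, neither of which was called (adjusted P = 0.181 and 0.72, limma). Between stages MYB10 rose in both cultivars, with log2 fold changes of 1.22 ± 0.14 in ‘RCF’ and 1.499 ± 0.20 in ‘CF’ (adjusted P = 0.000399 and 0.0104). C1, named after an anthocyanin regulator of maize, followed the same order of groups. C1 had 4.78, 3.08 and 5.52 FPKM in ‘RCF2’, against 6.61, 7.45 and 7.93 FPKM in ‘CF2’, 1.48, 0.392 and 0.534 FPKM in ‘RCF1’ and 1.597, 1.72 and 0.0495 FPKM in ‘CF1’. C1 rose between stages by 1.62 ± 0.25 in ‘RCF’ and 2.09 ± 0.38 in ‘CF’ (adjusted P = 0.00155 and 0.0196), and between cultivars its log2 fold change of -0.63 at 5 DAFB was not called.

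**Figure D1:**
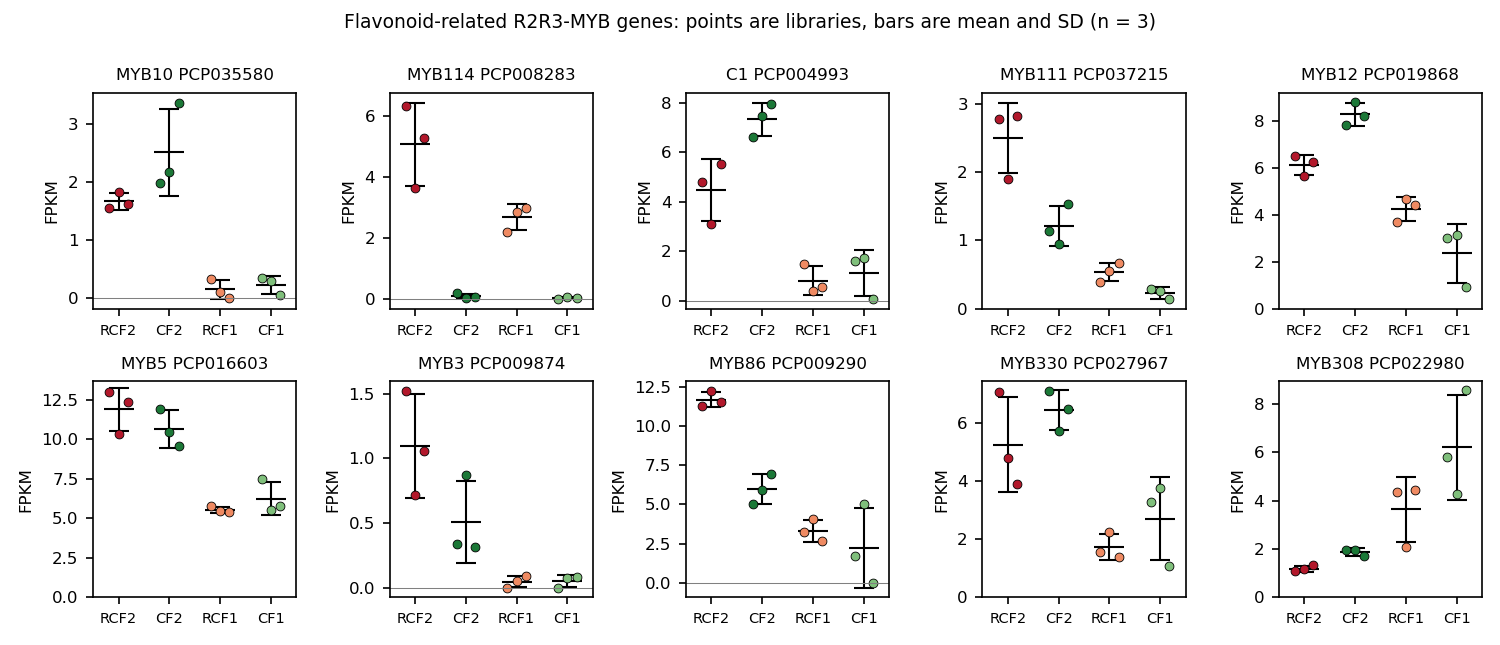
FPKM (y axis, linear) of the 10 flavonoid-related R2R3-MYB genes in ‘RCF2’, ‘CF2’, ‘RCF1’ and ‘CF1’ (x axis), with 1 point for each library and bars for the mean and SD (n = 3). MYB114 reached 3.63 to 6.31 FPKM in ‘RCF2’ and 2.19 to 2.99 FPKM in ‘RCF1’ and stayed at or under 0.197 FPKM in both groups of ‘CF’, whereas MYB10, C1 and MYB330 differed mainly between stages.

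The other flavonoid-related genes split by cultivar at 5 DAFB in both directions. The 10 R2R3-MYB genes of this list were grouped here from the supplementary tables of the study. The study drew them from its own differentially expressed genes of these samples, so counts among them are not independent evidence of a direction. Of the 9 genes that could be tested, 7 had groups that did not overlap at 5 DAFB, 3 higher and 4 lower in ‘RCF2’, where 109 of the tested members (41.9%) and 29.9% of all tested genes did not overlap. MYB111, named after an activator of flavonol synthesis in Arabidopsis, had 2.77, 1.9 and 2.82 FPKM in ‘RCF2’, against 1.14, 0.949 and 1.53 FPKM in ‘CF2’. MYB86 had 11.3, 12.2 and 11.5 FPKM in ‘RCF2’, against 5.06, 5.94 and 6.93 FPKM in ‘CF2’. With MYB114, these were the genes higher in the sport, at log2 fold changes of 0.66 ± 0.15 and 0.87 ± 0.11 (SE; adjusted P = 0.0382 and 0.00849, limma) that stayed under the fold threshold. MYB12, whose Arabidopsis namesake also activates flavonol synthesis, went the other way, with 6.502, 5.66 and 6.24 FPKM in ‘RCF2’, against 7.83, 8.795 and 8.19 FPKM in ‘CF2’ (log2 fold change -0.38 ± 0.08, adjusted P = 0.0385). MYB308, named after a repressor of phenolic metabolism in Antirrhinum, had 1.09, 1.16 and 1.32 FPKM in ‘RCF2’, against 1.97, 1.96 and 1.71 FPKM in ‘CF2’ (log2 fold change -0.39 ± 0.09, adjusted P = 0.0409). MYB10 and C1 made up the rest of the genes that were lower in ‘RCF2’. MYB5 and MYB330 overlapped between cultivars, with log2 fold changes of 0.15 and -0.28.

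MYB3, named after a repressor of phenylpropanoid genes in Arabidopsis, did not pass the filter. It had 1.52, 0.715 and 1.05 FPKM in ‘RCF2’ and 0.336, 0.874 and 0.314 FPKM in ‘CF2’. At 2 DAFB it had 0 (as listed), 0.0486 and 0.0875 FPKM in ‘RCF1’ and 0 (as listed), 0.0724 and 0.085 FPKM in ‘CF1’. All libraries of 5 DAFB were above all libraries of 2 DAFB, and the cultivars overlapped at both stages.

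At 5 DAFB the remaining calls between cultivars were 2 genes higher and 1 gene lower in ‘RCF2’. MYB73 (PCP003446) had 103.1, 104.7 and 107.02 FPKM in ‘RCF2’, against 27.2, 32.02 and 46.3 FPKM in ‘CF2’, a log2 fold change of 1.59 ± 0.17 (SE, adjusted P = 0.00589, limma). At 2 DAFB the same gene had 66.9, 123.4 and 84.7 FPKM in ‘RCF1’ and 72.6, 62.3 and 13.6 FPKM in ‘CF1’, and the groups overlapped. The 2 other genes named MYB73 had groups apart in the same direction at 5 DAFB. MYB73 (PCP010433) had 113.6, 124.1 and 123.3 FPKM in ‘RCF2’, against 45.3, 65.02 and 79.8 FPKM in ‘CF2’, and MYB73 (PCP017127) had 57.97, 57.5 and 55.2 FPKM in ‘RCF2’, against 26.05, 34.5 and 35.4 FPKM in ‘CF2’. Their log2 fold changes, 0.95 ± 0.18 and 0.82 ± 0.12 (adjusted P = 0.0262 and 0.0114), were under the fold threshold. How reads shared by similar genes were assigned is not given in the sources used here, so the 3 MYB73 genes are not certain to be independent. In MYB73 (PCP010433) the groups were also apart at 2 DAFB, with 174.9, 165.7 and 195.6 FPKM in ‘RCF1’ and 113.7, 152.6 and 164.5 FPKM in ‘CF1’.

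ODORANT1 (PCP019985), named after a regulator of benzenoid scent in petunia, was the member called lower in the sport at 5 DAFB. It had 1.15, 0.665 and 1.61 FPKM in ‘RCF2’, against 3.61, 3.73 and 3.35 FPKM in ‘CF2’ (log2 fold change -1.11 ± 0.16, adjusted P = 0.0124, limma). At 2 DAFB it had 0.303, 0.246 and 0.228 FPKM in ‘RCF1’ and 1.38, 1.47 and 0 (as listed) FPKM in ‘CF1’. ‘CF1’ replicate 3 decided whether the groups overlapped, and without it the log2 fold change was -0.95 (adjusted P = 0.0494). The last call, PCP007371 (MYB DNA-binding), had 10.3, 17.1 and 16.4 FPKM in ‘RCF2’ and 1.84, 4.42 and 10.4 FPKM in ‘CF2’. These groups overlapped, and its adjusted P was 0.104.

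At 2 DAFB the members called lower in the sport were MYB74 (PCP020892), MYB59, RVE7L, PCP034539 and PCP016172. MYB74, a name taken from an Arabidopsis gene of the salt response, had 1.72, 0.908 and 2.604 FPKM in ‘RCF1’, against 13.5, 5.06 and 16.2 FPKM in ‘CF1’ (log2 fold change -2.11 ± 0.45, adjusted P = 0.193, limma). PCP034539 (Myb/SANT-like) had 0.401, 0.063 and 0.205 FPKM in ‘RCF1’, against 5.62, 2.17 and 9.03 FPKM in ‘CF1’ (-2.29 ± 0.42, adjusted P = 0.158). In both genes the groups were well apart, and the spread within ‘CF1’ was wide. MYB59 had 0.819, 0.447 and 0.194 FPKM in ‘RCF1’, against 2.998, 1.58 and 3.2 FPKM in ‘CF1’, and remained lower in the sport at 5 DAFB, with 0.164, 0.154 and 0.268 FPKM in ‘RCF2’, against 1.798, 0.638 and 0.796 FPKM in ‘CF2’. RVE7L, of the REVEILLE family of clock-related single-repeat proteins, had 1.45, 1.39 and 1.32 FPKM in ‘RCF1’, against 3.98, 3.02 and 4.65 FPKM in ‘CF1’, and without ‘CF1’ replicate 3 its log2 fold change of -0.91 missed the fold threshold. PCP016172 was called through ‘CF1’ replicate 2, which had 36.6 FPKM beside 9.16 and 6.97 FPKM in the other libraries of ‘CF1’, against 4.66, 4.59 and 3.48 FPKM in ‘RCF1’. Without that library its log2 fold change of -1.47 became -0.79 and was not called.

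Beside MYB114, the members called higher in the sport at 2 DAFB were RADIALIS-like5 and PCP024511, both of the Myb-like class. RADIALIS-like5 (PCP008920), of the family of RADIALIS, a single-repeat protein that acts in flower asymmetry in Antirrhinum, had 7.97, 4.55 and 6.79 FPKM in ‘RCF1’, against 0.737, 1.59 and 1.65 FPKM in ‘CF1’ (adjusted P = 0.12, limma). PCP024511 had 8.44, 4.74 and 6.48 FPKM in ‘RCF1’, against 1.56, 1.51 and 1.44 FPKM in ‘CF1’ (adjusted P = 0.111). Both were several-fold higher in every library of ‘RCF1’ than in any of ‘CF1’, and neither held after adjustment in this comparison, in which 6 of all 742 called genes did. By 5 DAFB RADIALIS-like5 had 1.01, 1.14 and 0.312 FPKM in ‘RCF2’ and 0.478, 0.455 and 0.5804 FPKM in ‘CF2’, and the cultivars overlapped. PCP024511 then had 2.61, 2.53 and 2.599 FPKM in ‘RCF2’ and 2.08, 1.75 and 1.36 FPKM in ‘CF2’, and the cultivars were still apart.

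**Figure D2:**
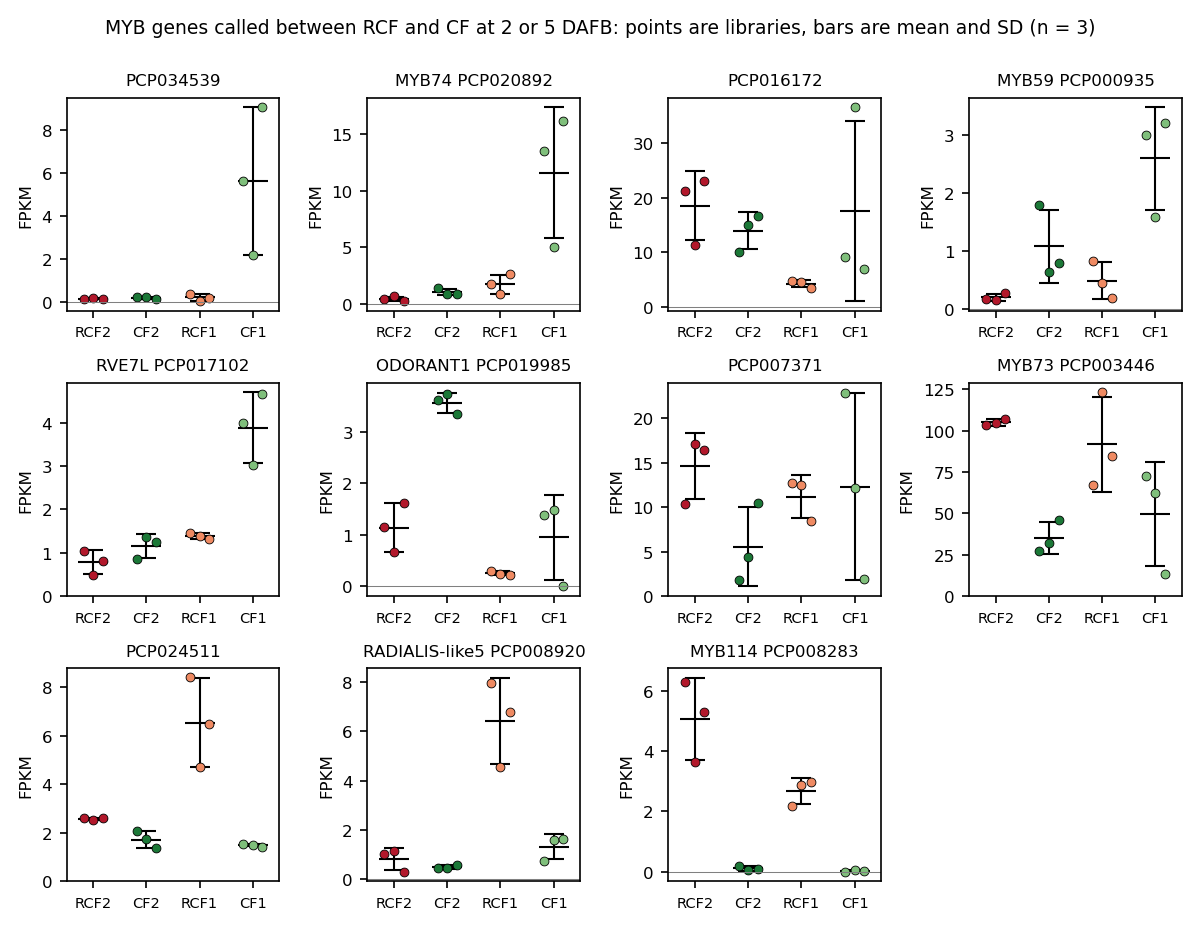
FPKM (y axis, linear) of the 11 members called between ‘RCF’ and ‘CF’ at 2 or 5 DAFB, in ‘RCF2’, ‘CF2’, ‘RCF1’ and ‘CF1’ (x axis), with 1 point for each library and bars for the mean and SD (n = 3). PCP034539, MYB74, MYB59 and RVE7L were highest in ‘CF1’, RADIALIS-like5 and PCP024511 were highest in ‘RCF1’, and MYB114 was high in both groups of ‘RCF’.

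Smaller differences of the same direction at both stages were more frequent than calls. In 23 tested members (8.85%) the libraries of ‘RCF’ and ‘CF’ did not overlap at either stage and differed in the same direction, 13 higher and 10 lower in the sport, where 6.02% of all tested genes did so. The comparisons at the 2 stages share no library. The following examples were chosen after their values were seen. PCP002533 had 3.36, 2.89 and 2.74 FPKM in ‘RCF2’, against 1.72, 1.49 and 1.63 FPKM in ‘CF2’, and 5.796, 5.06 and 4.37 FPKM in ‘RCF1’, against 2.75, 3.56 and 1.402 FPKM in ‘CF1’. PCP020565 had 9.52, 5.91 and 11.03 FPKM in ‘RCF2’, against 16.03, 14.6 and 12.9 FPKM in ‘CF2’, and 20.6, 20.7 and 24.4 FPKM in ‘RCF1’, against 39.3, 27.99 and 69.2 FPKM in ‘CF1’. MYB111, MYB59, MYB74 (PCP020892), MYB73 (PCP010433), PCP024511 and MYBS3 (PCP027962) also belonged to the 23.

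Between stages, many more MYB genes changed. In ‘RCF2’ vs. ‘RCF1’, 36 of 260 members (13.8%) were called, 19 higher and 17 lower at 5 DAFB, where 10.3% of all tested genes were called (3.54% higher, 6.71% lower). All 36 held after adjustment, beside 10.2% of all tested genes. The stages did not overlap in 164 members (63.1%), beside 56.5% of all tested genes. In ‘CF2’ vs. ‘CF1’, 59 members (22.7%) were called, 36 higher and 23 lower, where 17.1% of all tested genes were called, 7.23% higher and 9.91% lower. After adjustment 46 held, beside 12.6% of all tested genes, and the stages did not overlap in 151 members (58.1%), beside 58.9% of all tested genes. The median log2 fold change of the members was 0.07 in ‘RCF’ and 0.15 in ‘CF’, beside 0.02 and 0.16 for all tested genes. Among all genes more were lower than higher at 5 DAFB, and among the members more were higher. This was not so for the 171 MYB DNA-binding genes, with 12 higher and 14 lower in ‘RCF’ and 19 and 21 in ‘CF’. The MYC/MYB N-terminal genes, which are not MYB proteins, had 6 higher in ‘RCF’ and 10 in ‘CF’, and none lower. The count of higher members in ‘CF’ depended on ‘CF1’ replicate 3, since without it 17 were higher and 26 lower, beside 12% of all tested genes called, 3.29% higher and 8.67% lower, and 38 of the 59 calls remained. Without ‘CF1’ replicate 2, 48 were higher and 28 lower, beside 24.6% of all tested genes called, 13.1% higher and 11.5% lower. Rescaling to TPM shifted the median log2 fold change of all genes in ‘CF2’ vs. ‘CF1’ by 0.10.

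The 2 cultivars, which share no library in these comparisons, changed alike for most members. The sign of the stage change was the same in 212 of 260 members (81.5%), beside 78.8% of all tested genes, and 26 members (10%) were called in both cultivars, 13 higher and 13 lower in both and none in opposite directions, where 7.64% of all tested genes were called in both. A further 10 were called in ‘RCF’ and not in ‘CF’, and 33 in ‘CF’ and not in ‘RCF’. More calls in ‘CF’ were also found among all tested genes, of which 10.3% were called in ‘RCF’ and 17.1% in ‘CF’. The stage changes of ‘RCF’ and ‘CF’ correlated across the 260 members with Pearson's r = 0.851, and across all tested genes with r = 0.845, where genes of 1 library share its depth and preparation and are no replicates. Without ‘CF1’ replicate 3 the correlation across the members was 0.833. In that fit 23 members were called in both cultivars, 9 higher and 14 lower, of which 22 were among the 26. Of all tested genes 12% were then called in ‘CF’, and the share called in both cultivars is not given here.

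**Figure D3:**
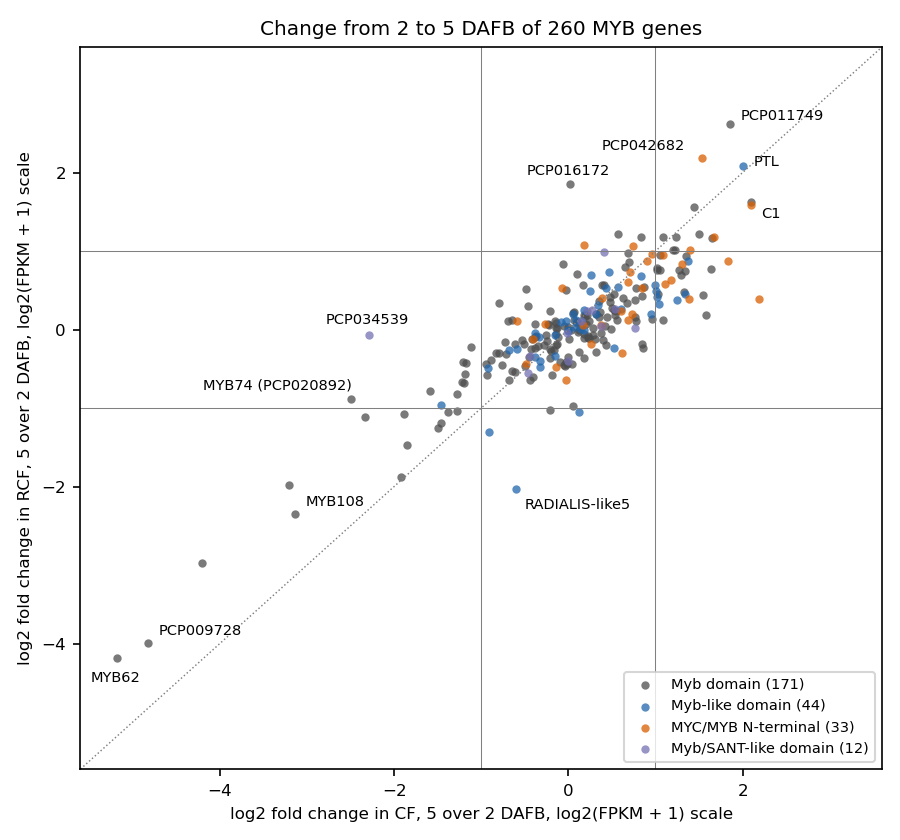
Log2 fold change from 2 to 5 DAFB on the log2(FPKM + 1) scale in ‘RCF’ (y axis) and in ‘CF’ (x axis), with 1 point for each of the 260 tested members, colored by domain class. The grey lines mark the fold threshold of 1 and the dotted line equal change. Most members lie along the dotted line, with MYB62 at -4.19 in ‘RCF’ and -5.18 in ‘CF’, and MYB74 (PCP020892), PCP034539, PCP016172 and RADIALIS-like5 lie away from it.

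The largest decreases were in genes named after stress-responsive R2R3-MYB genes and in unnamed genes of the MYB DNA-binding class. MYB62, whose Arabidopsis namesake acts in phosphate starvation and gibberellin responses, had 0.275, 0.0841 and 0.134 FPKM in ‘RCF2’, against 24.7, 14.2 and 23.2 FPKM in ‘RCF1’. In the parent MYB62 had 0.291, 0.059 and 0.139 FPKM in ‘CF2’, against 47.8, 18.2 and 78.2 FPKM in ‘CF1’. It was thus nearly off at 5 DAFB in both cultivars, with log2 fold changes of -4.19 ± 0.20 and -5.18 ± 0.50 (SE; adjusted P = 8.25e-06 and 0.00723, limma). PCP009728 fell by 3.99 ± 0.20 in ‘RCF’, with 2.02, 0.891 and 0.933 FPKM in ‘RCF2’, against 36.6, 39.2 and 28.2 FPKM in ‘RCF1’, and by 4.83 ± 0.34 in ‘CF’, with 1.28, 0.896 and 2.22 FPKM in ‘CF2’, against 55.2, 51.2 and 107.1 FPKM in ‘CF1’. PCP020322 fell by 2.97 and 4.21 and PCP001904 by 1.98 and 3.21 on the log2 scale in ‘RCF’ and ‘CF’. In all 4 genes, every library of 5 DAFB was below every library of 2 DAFB.

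A stress list of 10 genes was grouped here from genes that the study named from these samples. It also holds ODORANT1, named after a scent regulator. Of these 10 genes, 4 fell and none rose in ‘RCF’, with a median log2 fold change of -0.83. In ‘CF’ 7 fell and 1 rose, with a median of -1.74. Of all tested genes 6.71% fell and 3.54% rose in ‘RCF’, and 9.91% fell and 7.23% rose in ‘CF’. Without ‘CF1’ replicate 3 the counts in ‘CF’ were 7 and 0, where 8.67% of all tested genes fell and 3.29% rose. MYB108, whose Arabidopsis namesake acts in wounding and Botrytis responses, had 1.66, 1.37 and 1.51 FPKM in ‘RCF2’, against 13.1, 9.201 and 13.7 FPKM in ‘RCF1’, and 1.58, 0.8596 and 1.58 FPKM in ‘CF2’, against 21.1, 14.3 and 23.9 FPKM in ‘CF1’. MYB74 (PCP002652) had 1.23, 2.37 and 0.987 FPKM in ‘RCF2’, against 9.71, 7.304 and 7.26 FPKM in ‘RCF1’, and 1.27, 1.68 and 1.96 FPKM in ‘CF2’, against 8.48, 9.72 and 8.67 FPKM in ‘CF1’. Unlike the MYB74 gene PCP020892, it did not differ between cultivars beyond the spread of its libraries, at log2 fold changes of -0.14 ± 0.15 at 2 DAFB and -0.09 ± 0.21 at 5 DAFB. MYB2, whose Arabidopsis namesake acts in drought and abscisic acid responses, fell by 1.08 ± 0.15 in ‘RCF’ and 1.89 ± 0.20 in ‘CF’ (adjusted P = 0.000817 and 0.00792, limma). In ‘CF’ the others that fell were MYB62, MYB74 (PCP020892) and 2 of the MYB73 genes, and the one that rose was ODORANT1, whose call was lost without ‘CF1’ replicate 3 (log2 fold change 0.91 in place of 1.34).

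The flavonoid-related list mostly went up. In ‘RCF’ 5 of its 9 tested genes rose (MYB10, C1, MYB111, MYB86 and MYB330) and 1 fell (MYB308), with a median log2 fold change of 1.17, and in ‘CF’ 4 rose (MYB10, C1, MYB12 and MYB330) and 1 fell (MYB308), with a median of 1.09. These counts stand beside 3.54% of all tested genes higher and 6.71% lower in ‘RCF’, and 7.23% and 9.91% in ‘CF’, and the list was drawn from genes that changed in these samples. MYB86 rose in ‘RCF’ by 1.56 ± 0.12 (adjusted P = 6.23e-05, limma), with 3.26, 4.06 and 2.67 FPKM in ‘RCF1’. In ‘CF’ it had 1.72, 5.02 and 0.0298 FPKM at 2 DAFB, and its log2 fold change of 1.44 ± 0.61 was not called (adjusted P = 0.121), while without ‘CF1’ replicate 2 it was 2.05 and without replicate 3 it was 0.78. MYB330, named after a gene for a repressor of phenolic metabolism in Antirrhinum, had 7.09, 4.799 and 3.91 FPKM in ‘RCF2’, against 1.57, 2.26 and 1.399 FPKM in ‘RCF1’, and 7.13, 5.74 and 6.497 FPKM in ‘CF2’, against 3.31, 3.77 and 1.08 FPKM in ‘CF1’. Its call in ‘CF’ was lost without ‘CF1’ replicate 3 (log2 fold change 0.71 in place of 1.09). MYB308 went the other way and fell in each cultivar, with log2 fold changes of -1.04 ± 0.21 in ‘RCF’ and -1.28 ± 0.23 in ‘CF’ (adjusted P = 0.00573 and 0.0194). MYB5, a regulator of procyanidin and seed coat genes in other plants, was higher in every library of 5 than of 2 DAFB in ‘RCF’, with 12.97, 10.3 and 12.3 FPKM in ‘RCF2’, against 5.77, 5.47 and 5.38 FPKM in ‘RCF1’, at a log2 fold change of 0.97 just under the threshold.

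The enzymes and the transporter that such MYB proteins are known to control were counted from a list of 11 genes of the study (PAL1, 4CL1, 4CL2, CHS, 3 CHI genes, F3H, ANS, ANR and GSTF12). Of the 3 CHI genes, PCP027877 has a malectin-like carbohydrate-binding domain as its deposited domain name, and the rest have chalcone isomerase. It is counted under the name that the study gave it. All 11 rose in ‘RCF2’ vs. ‘RCF1’, with a median log2 fold change of 2.22, and 9 rose in ‘CF2’ vs. ‘CF1’, with a median of 1.53, where 3.54% and 7.23% of all tested genes rose. The study took these genes too from its differentially expressed genes, so their counts are not independent evidence of a direction. Between cultivars GSTF12, a glutathione S-transferase of anthocyanin transport, was the only one called at both stages, at 4.49 ± 0.13 in ‘RCF2’ vs. ‘CF2’ and 5.04 ± 0.25 in ‘RCF1’ vs. ‘CF1’ (adjusted P = 3.13e-05 and 0.0228, limma). CHS, the first enzyme of flavonoid synthesis, was called lower in ‘RCF1’ than in ‘CF1’, by -2.27 ± 0.31, and did not hold after adjustment (adjusted P = 0.117). The interaction was called higher for 3 of the 11 genes (CHS, 4CL2 and 1 CHI gene), where 2.59% of all tested genes were called higher, and none of the 3 held after adjustment (limma; 8 of the 11 had P under 0.05 before it). When ‘CF1’ replicate 3 was left out, 2 of 3 calls held, beside 160 of all 25707 tested genes. All 3 held when ‘CF1’ replicate 2 was left out, beside 1809 of all 25707.

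**Figure D4:**
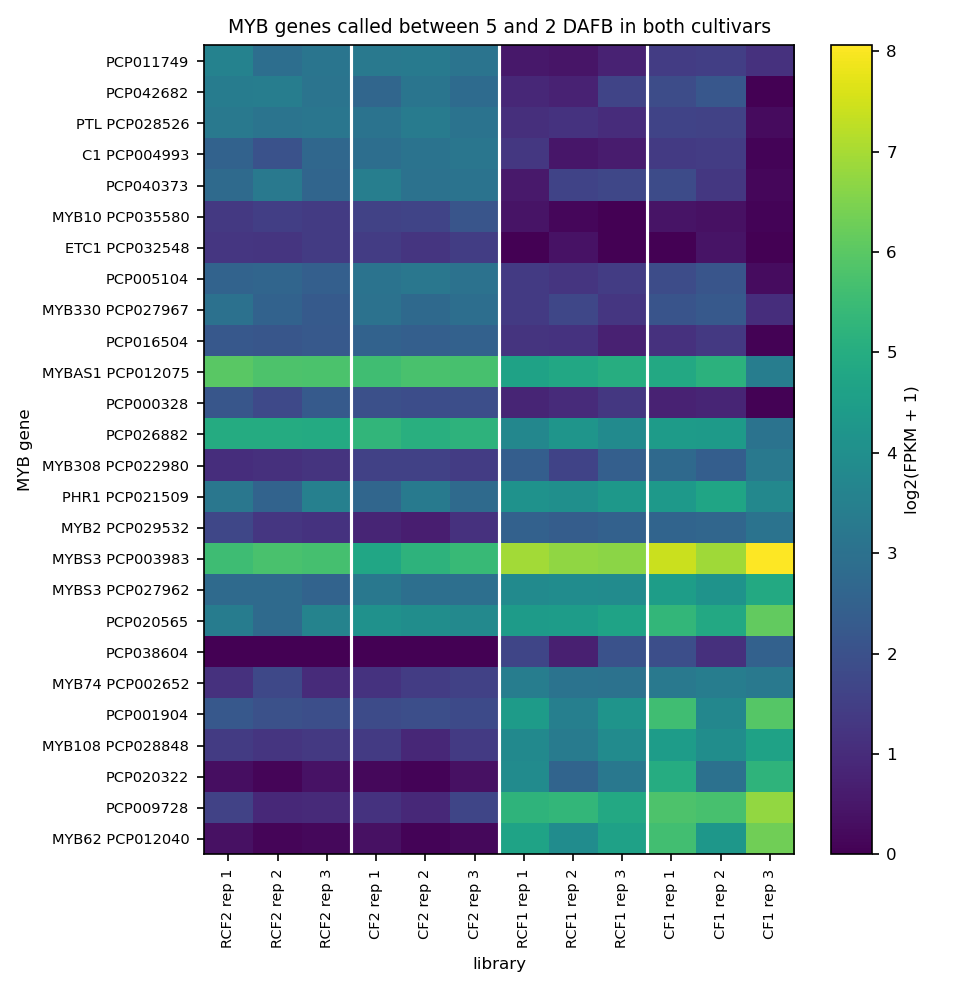
Log2(FPKM + 1) (color) of the 26 members called between 5 and 2 DAFB in both cultivars (rows, ordered by the change in ‘RCF’) in each of the 12 libraries (columns, grouped as ‘RCF2’, ‘CF2’, ‘RCF1’ and ‘CF1’). The upper 13 rows rise and the lower 13 fall at 5 DAFB, and in most of the rising genes ‘CF1’ replicate 3 is darker (lower) than the other libraries of ‘CF1’.

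Among the single-repeat and related genes, of which 9 could be tested, 1 rose and 3 fell in ‘RCF’, where 10.3% of all tested genes were called, and 4 rose and 4 fell in ‘CF’, where 17.1% were. The study named these genes from its own differentially expressed genes, and the GARP and trihelix genes likewise. ETC1 is a small single-repeat protein that acts in cell fate in the Arabidopsis epidermis. It had 1.43, 1.37 and 1.66 FPKM in ‘RCF2’, against 0, 0.301 and 0 (as listed) FPKM in ‘RCF1’. In the parent it had 1.701, 1.38 and 1.74 FPKM in ‘CF2’, against 0, 0.339 and 0 (as listed) FPKM in ‘CF1’. It rose by 1.18 ± 0.15 and 1.24 ± 0.17 on the log2 scale (adjusted P = 0.00055 and 0.0107, limma). CPC, a protein of the same kind, was called in ‘CF’ only, by 1.34 ± 0.36, and its change in ‘RCF’ was 0.45 ± 0.11. The difference of these changes, -0.89 ± 0.40, had an adjusted P of 0.317, and without ‘CF1’ replicate 3 the change in ‘CF’ was 0.98, under the threshold. The 2 MYBS3 genes, named after a rice repressor of sugar starvation genes, fell in both cultivars. The more abundant, PCP003983, had 46.01, 52.7 and 49.99 FPKM in ‘RCF2’, against 120.7, 104.9 and 100.5 FPKM in ‘RCF1’, and 26.1, 35.7 and 42.5 FPKM in ‘CF2’, against 170.05, 120.5 and 265.5 FPKM in ‘CF1’. KUA1, whose Arabidopsis namesake acts in cell expansion, fell in ‘CF’ by 1.28 ± 0.33, and its log2 fold change was -0.95, under the threshold, without ‘CF1’ replicate 2. DIVARICATA, named after a regulator of petal shape in Antirrhinum, and SRM1 rose in ‘CF’, by 1.64 ± 0.51 and 1.35 ± 0.25 (adjusted P = 0.0625 and 0.0207).

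Of the 4 genes of the GARP and trihelix classes, PTL, whose Arabidopsis namesake acts in petal development, was the only one that rose. In ‘RCF’ 1 was called higher and 1 lower, where 3.54% and 6.71% of all tested genes were. In ‘CF’ 1 was called higher and 3 lower, where 7.23% and 9.91% were. PTL had 8.57, 7.599 and 7.88 FPKM in ‘RCF2’, against 1.105, 1.27 and 1.02 FPKM in ‘RCF1’, and 7.42, 9.12 and 7.45 FPKM in ‘CF2’, against 2.09, 2.01 and 0.189 FPKM in ‘CF1’. The change was 2.08 ± 0.09 in ‘RCF’ and 2.01 ± 0.39 in ‘CF’ (adjusted P = 7.38e-06 and 0.0221, limma), and the cultivars did not differ beyond their spread at either stage. PHR1, the regulator of the phosphate starvation response in Arabidopsis, fell by 1.06 ± 0.22 in ‘RCF’ and 1.38 ± 0.29 in ‘CF’ (adjusted P = 0.00609 and 0.0274). HHO3, of a family of nitrate-induced repressors in Arabidopsis, fell in ‘CF’ by 1.22 ± 0.16, with 17.99, 22.02 and 26.03 FPKM in ‘CF2’, against 53, 48.9 and 54.9 FPKM in ‘CF1’. At 2 DAFB HHO3 had 26.4, 21.8 and 29.2 FPKM in ‘RCF1’, below every library of ‘CF1’, at a log2 fold change just short of the threshold. GT-3b, a trihelix gene, fell in ‘CF’ by 1.46 ± 0.22 (adjusted P = 0.0136), and its change in ‘RCF’ was not called. Of the unnamed MYB DNA-binding genes, PCP011749 rose the most, with 10.96, 6.49 and 7.77 FPKM in ‘RCF2’, against 0.433, 0.367 and 0.715 FPKM in ‘RCF1’, and 8.49, 8.92 and 7.502 FPKM in ‘CF2’, against 1.71, 1.798 and 1.23 FPKM in ‘CF1’. Of the 34 tested MYB genes of the lists, 30 were called between stages in at least 1 cultivar, as were 69 of the 260 tested members (26.5%) and 19.7% of all tested genes. The lists hold genes that the study found to differ in these same samples, so their share is not independent evidence of a change. The 2 not yet described were MYBAS1, which rose in ‘RCF’ by 1.02 ± 0.11 and in ‘CF’ by 1.20 ± 0.45 (0.66 and not called without ‘CF1’ replicate 3), and SUI1, which fell in ‘RCF’ by 1.303 ± 0.22 (adjusted P = 0.00204).

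By domain class, 12 of the 171 MYB DNA-binding genes were higher and 14 lower at 5 DAFB in ‘RCF’, and 19 were higher and 21 lower in ‘CF’. Of all tested genes 3.54% were higher and 6.71% lower in ‘RCF’, and 7.23% were higher and 9.91% lower in ‘CF’. Without ‘CF1’ replicate 3, 9 of the MYB DNA-binding genes were higher and 23 lower in ‘CF’, beside 3.29% and 8.67% of all tested genes, and without replicate 2 it was 27 and 25, beside 13.1% and 11.5%. Of the 44 Myb-like genes 1 was higher and 3 were lower in ‘RCF’, and 7 were higher and 1 was lower in ‘CF’, or 3 and 2 without ‘CF1’ replicate 3. Of the 12 Myb/SANT-like genes none was called in ‘RCF’ and 1, PCP034539, was lower in ‘CF’. The calls among the MYC/MYB N-terminal genes were in 1 direction. Of the 33 tested, 6 rose and none fell in ‘RCF’, where 3.54% of all tested genes rose and 6.71% fell, and 10 rose and none fell in ‘CF’, where 7.23% rose and 9.91% fell. The median log2 fold change was 0.53 in ‘RCF’ and 0.70 in ‘CF’, beside 0.02 and 0.16 for all tested genes, and in 24 of the 33 it was above 0 in both cultivars. Without ‘CF1’ replicate 3, 5 rose and none fell in ‘CF’, with a median of 0.55. In that fit 3.29% of all tested genes rose and 8.67% fell, with a median of 0.09. Without that library the median was thus still above that of all genes, while there were fewer calls. The 4 genes called in both cultivars were PCP042682, PCP040373, PCP005104 and PCP000328. PCP042682 had 9.37, 9.67 and 7.55 FPKM in ‘RCF2’, against 0.873, 0.706 and 2.17 FPKM in ‘RCF1’, and 5.34, 7.79 and 6.12 FPKM in ‘CF2’, against 2.67, 3.51 and 0 (as listed) FPKM in ‘CF1’. It rose by 2.18 ± 0.23 in ‘RCF’ (adjusted P = 0.000216, limma), and in ‘CF’ by 1.53 ± 0.57 (adjusted P = 0.0928), which was 0.85 and not called without ‘CF1’ replicate 3. PCP040373 had 5.82, 8.63 and 5.22 FPKM in ‘RCF2’, against 0.4802, 2.09 and 2.29 FPKM in ‘RCF1’, and 9.79, 7.21 and 7.36 FPKM in ‘CF2’, against 2.57, 1.45 and 0.0959 FPKM in ‘CF1’. PCP019425 shows how far 1 library could move a value, with 30.3 and 37.1 FPKM in ‘CF1’ replicates 1 and 2 and 0.759 FPKM in replicate 3, beside 50.1, 61.03 and 61.5 FPKM in ‘CF2’. Between cultivars none of the 33 genes was called at either stage, where 2.89% and 1.26% of all tested genes were called. The medians of the 33 were 0.23 at 2 DAFB and 0.03 at 5 DAFB, beside 0.12 and -0.01 for all tested genes. Without ‘CF1’ replicate 2, 5 of the 33 were called higher in ‘RCF1’, beside 3.9% of all tested genes called higher and 5.28% lower (limma). Without replicate 3 none was called, beside 0.65% and 1.4%. The summed FPKM of kinesin genes, given above, was likewise higher at 5 DAFB in both cultivars and lowest in ‘CF1’ replicate 3, and its part in these changes was not tested.

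**Figure D5:**
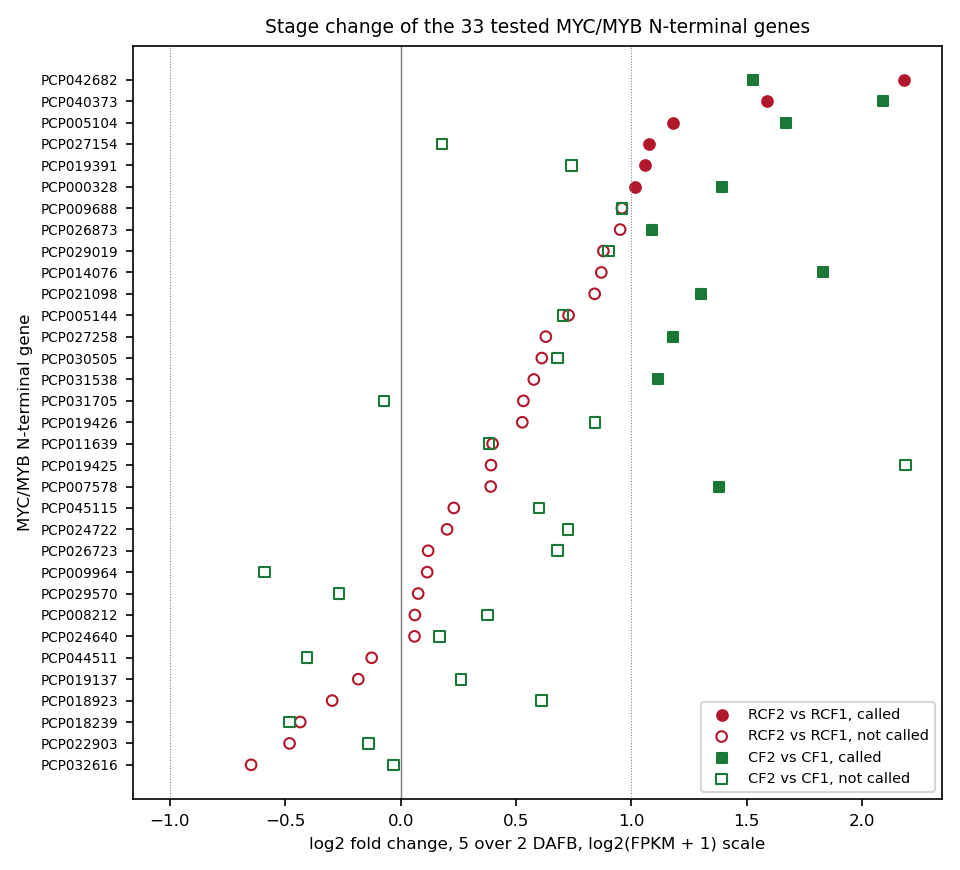
Log2 fold change from 2 to 5 DAFB on the log2(FPKM + 1) scale (x axis) of the 33 tested MYC/MYB N-terminal genes (rows), for ‘RCF2’ vs. ‘RCF1’ (circles) and ‘CF2’ vs. ‘CF1’ (squares), filled where the gene was called. All called genes, 6 in ‘RCF’ and 10 in ‘CF’, lie to the right of the line at 1, and none lies to the left of the line at -1.

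Some members lie next to each other in the genome. Within 50 kb of another member on the same scaffold lay 66 members, in 47 pairs. In 14 of these pairs both genes passed the filter, in 21 only one did and in 12 neither did. The stage changes of the 14 pairs had the same sign in 6 pairs in ‘RCF’ and 9 in ‘CF’. The neighbour of MYB114, PCP044069, was listed at 0 in every library, and the neighbour of C1, PCP004994, stayed at or under 0.0572 FPKM. On scaffold00011, PCP016172 rose by 1.85 ± 0.24 in ‘RCF’ (adjusted P = 0.000669, limma), with 21.2, 11.3 and 23.2 FPKM in ‘RCF2’, against 4.66, 4.59 and 3.48 FPKM in ‘RCF1’. Its neighbours PCP016173 and PCP016175 changed by 0.57 and -0.23 and were not called, and PCP016174 was listed at 0 throughout.

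Last, the difference between cultivars in the stage change was tested on all 12 libraries. It was called for 9 of 260 members (3.46%), 4 higher and 5 lower, where 3.96% of all tested genes were called, 2.59% higher and 1.37% lower. None of these genes, and none (0%) of all 25707, held after adjustment (limma, where 49 members had P under 0.05 before it). Without ‘CF1’ replicate 3 there were 11 calls, 1 of which held. In that fit 2.79% of all tested genes were called, and 160 of the 25707 held. Without ‘CF1’ replicate 2 there were 26 calls, of which 20 held. In that fit 11.2% of all tested genes were called, and 1809 of the 25707 held. MYB74 (PCP020892) changed by -0.89 ± 0.23 in ‘RCF’, under the threshold, and by -2.498 ± 0.40 in ‘CF’, where it was called, a difference of 1.61 ± 0.50 (adjusted P = 0.214). PCP024511 fell by 1.05 ± 0.17 in ‘RCF’ and changed by 0.12 ± 0.14 in ‘CF’, a difference of -1.16 ± 0.23 (adjusted P = 0.1004). MYB12 rose in ‘CF’ by 1.54 ± 0.32 and changed by 0.44 ± 0.10 in ‘RCF’. Its difference, -1.10 ± 0.35, was -0.74 without ‘CF1’ replicate 3, in which MYB12 had 0.921 FPKM beside 3.02 and 3.16 FPKM in the other libraries of ‘CF1’.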

How the data were processed

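Skins of young fruits of 2 pear cultivars at 2 stages were sequenced as 12 libraries. The authors deposited 1 table of FPKM values per gene and library, scaled by them to gene length and mapped fragments, with domain names and scaffold positions. The submitters' processing notes name Trimmomatic 0.38, HISAT2 2.1.0, StringTie 1.3.4d and DESeq2, without their roles. The text of the study names an apple reference genome for the mapping, whereas the table lists pear gene identifiers (PCP) on scaffolds. This could not be settled here, and the build is not given in the sources used here. Read counts were not used here, so depth enters only as relative depth.

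Values entered limma 3.58.1 (R 4.3.3; lmFit, eBayes with trend, two-sided) as log2(FPKM + 1), for the 25707 genes that reached an FPKM of 1 in 3 or more libraries. Pairwise comparisons were fitted on their 6 libraries alone and the interaction on all 12. A gene was called where P before adjustment was under 0.05 and the log2 fold change was 1 or more in either direction, and adjusted P are Benjamini-Hochberg over all tested genes. The methods of the study describe independent biological replicates, each of skins pooled from many fruits. Whether they came from separate trees is not given, so P measures the spread between these pools. On simulated data with 200 of 25707 genes changed by a log2 fold change of 2, 93% were called in ‘RCF1’ vs. ‘CF1’ (226 false calls) and 97% in ‘CF2’ vs. ‘CF1’ (262). In both remaining pairwise comparisons 100% were called, with 12 false calls for the cultivars at 5 DAFB and 23 for the stages of ‘RCF’. The simulated noise was independent for each gene and had the same SD in both groups. It thus held no library that stood apart from its group in many genes, as ‘CF1’ replicates 2 and 3 did. These rates do not describe that case. Tables were handled with Python 3.11.15, numpy 2.4.6 and pandas 2.3.3, and plots drawn with matplotlib 3.10.9.

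Genes named are 35 MYB genes of the supplementary tables of the study, in each comparison up to 4 members with the largest changes in each direction among adjusted calls with groups apart, the 5 most abundant members, the 4 with the smallest interaction P, and their neighbours within 50 kb. PCP007371, PCP005104, PCP000328, PCP006701, PCP038979, PCP019425, PCP002533 and PCP020565 were named after their values were seen. The listed genes RL3 and KAN4 have no Myb domain name and are not members. A marker list for green tissue matched no gene in its first wording and was counted with that of the table. The members, lists and tests were chosen with earlier results of these data known. Alternatives were a pseudocount of 0.1, no filter, an FPKM filter of 10, TPM, 1 fit of all 12 libraries, limma array weights, a block for replicate number, leaving out single libraries and calling by adjusted P. Counts by domain class and list without ‘CF1’ replicates 2 or 3 were added after seeing the data.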

Additional observations from a re-analysis of the deposited data

Results flagged for a closer look

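For 9 members the change from 2 to 5 DAFB differed between cultivars by an interaction term (limma, 12 libraries, P under 0.05 before adjustment and a difference of 1 or more on the log2 scale). The differences, as the change in ‘RCF’ minus that in ‘CF’, were 2.21 for PCP034539, 1.83 for PCP016172, 1.61 for MYB74 (PCP020892), 1.22 for MYBS3 (PCP003983), -1.03 for PCP038979, -1.09 for PCP006701, -1.10 for MYB12 (PCP019868), -1.16 for PCP024511 and -1.43 for RADIALIS-like5 (PCP008920). Their adjusted P ranged upwards from 0.1004, so none held, and the share of 3.46% was near the 3.96% of all tested genes.

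In RADIALIS-like5 and PCP024511 the highest group was ‘RCF1’, and in PCP034539 and MYB74 it was ‘CF1’. Without ‘CF1’ replicate 3 the differences of MYBS3 (0.92), PCP038979 (-0.98), PCP006701 (-0.90) and MYB12 (-0.74) missed the fold threshold, and the other 5 were still called. Without ‘CF1’ replicate 2, which had 36.6 FPKM of PCP016172 beside 9.16 and 6.97 FPKM in the other libraries of ‘CF1’, the difference of PCP016172 was 1.14 in place of 1.83 and was still called. PCP006701 had 8.25, 7.89 and 9.55 FPKM in ‘RCF1’, against 5.22, 4.16 and 2.82 FPKM in ‘CF1’, and the cultivars overlapped at 5 DAFB. PCP038979 had 1.66, 1.71 and 2.01 FPKM in ‘RCF1’, against 0.157, 0.906 and 0.339 FPKM in ‘CF1’.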

How the results depend on the processing

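Of 99 named changes, 58 kept their direction and call under all alternatives run, and none of 1379 recomputed values reversed, while 115 missed a threshold. The percentages after the counts are those of all tested genes called in the same fit. In ‘RCF1’ vs. ‘CF1’ the 8 called members (2.89%) became 15 with a pseudocount of 0.1 (4.79%), 0 of 114 tested with an FPKM filter of 10 (2.7%; limma, 12 had P under 0.05 before adjustment), 16 with array weights (5.53%) and 1 by adjusted P (0.0233%), and 7 to 25 with single libraries left out (25 without ‘CF1’ replicate 2, 9.18%). In ‘RCF2’ vs. ‘CF2’ the 4 (1.26%) became 9 with a pseudocount of 0.1 (2.66%), 2 with the filter of 10 (1.83%) and 8 with TPM (1.71%), and 3 to 10 with single libraries left out (10 without ‘CF2’ replicate 3, 1.72%). In ‘RCF2’ vs. ‘RCF1’ the 36 (10.3%) became 17 with the filter of 10 (12.1%), and 31 to 39 with single libraries left out (9.41% to 11%). In ‘CF2’ vs. ‘CF1’ the 59 (17.1%) became 25 with the filter of 10 (18.8%), and 43 to 76 with single libraries left out (12% to 24.6%). The 9 interaction calls (3.96%) became 17 with a pseudocount of 0.1 (5.48%), 2 with the filter of 10 (4%), 17 with array weights (5.94%) and 0 by adjusted P (0%; limma, 49 had P under 0.05 before adjustment), and 8 to 26 with single libraries left out (26 without ‘CF1’ replicate 2, 11.2%). The filter of 10 tests fewer genes, and the cause of the other shifts was not tested.

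Deviations of same-numbered libraries correlated at -0.18 to 0.33. Libraries of different numbers were not compared in this way, so these values cannot decide whether the replicate numbers pair the samples. With the replicate number as a block, 10, 4, 36, 58 and 9 members were called, in the order above. The share of all tested genes called in these fits is not given here, so these counts have no background beside them. The study lists the clean reads of each library, but the number of fragments behind a value was not worked out here. No counting error is therefore given, and MYB genes near 1 FPKM are the least certain.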
